A study of Mus musculus with 4 samples.

Results

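The 94 nuclear genes of oxidative phosphorylation among the 32285 genes counted were described here across thymocyte libraries and across cell classes within them. They were chosen by symbol alone, as all genes whose names begin with Nduf followed by a, b, c, s or v, with Cox followed by 4 to 8, with Uqcr or with Atp5, together with Sdha, Sdhb, Sdhc and Sdhd. By role they comprised 7 core subunits, 30 accessory subunits and 8 assembly factors of complex I, all 4 subunits of complex II, 8 subunits of complex III, 20 genes of complex IV and 17 genes of complex V. Ndufa4 and its paralogue Ndufa4l2 were counted with complex IV.

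The mitochondrial respiratory chain passes electrons from NADH through complex I, or from succinate through complex II, to complex III, cytochrome c and complex IV, which reduces oxygen. Protons pumped on the way drive complex V, the ATP synthase. A small set of core subunits is encoded by mitochondrial DNA, and all other subunits are encoded in the nucleus, translated in the cytosol and imported. Developing thymocytes pass through rapid division at the pre-T cell receptor checkpoint and later through selection of CD4 and regulatory T cells, stages at which their demand for ATP and for precursors differs.

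The study concerned the inhibitory receptor PD-1 in thymic production of IL-2 and in the development of regulatory T cells. Its 4 groups were knockout CD25+, wild-type (WT) CD25+, knockout CD25− and WT CD25− thymocytes from C57BL/6J mice aged 3 weeks. Each group was 1 10x Genomics 5′ library of cells from pooled thymi of 4 animals, depleted of CD8-bearing cells and sorted as live CD4+ HSA+ CD73− cells with or without CD25, where the CD25+ gate was meant to hold regulatory T cells and their progenitors. The stains listed in the labels name CD74 where the gate names CD73. The labels do not say if the CD25+ and CD25− cells of a genotype were sorted from the same pool, nor which piece of the PD-1 gene was deleted.

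After filtering, 9236 knockout-labelled CD25+ cells, 7649 WT CD25+ cells, 1716 knockout-labelled CD25− cells and 2985 WT CD25− cells were kept, with 68989300, 54064164, 11159298 and 13580881 unique molecular identifiers (UMIs, each marking 1 captured transcript). Kept cells of different libraries shared between 4 and 96 barcodes per pair of libraries. Pdcd1, which encodes PD-1, was at 18.9 CPM (its UMIs, scaled to a common total per library) in knockout-labelled and 16.02 CPM in WT CD25+ cells, and at 27.2 and 18.3 CPM in knockout-labelled and WT CD25− cells. It was thus not lower in the libraries labelled knockout, although 5′ reads can lie outside a deleted part, so these values check nothing about the deletion, and the libraries are called knockout-labelled throughout. Because each group was a single library, groups could not be tested against each other. Every comparison is between libraries, intervals are exact 95% intervals that cover counting error only, and in pooled cells fewer cells of a type cannot be told apart from less RNA per cell.

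Cells were divided by the UMIs of 4 genes into a Foxp3 class (at least 1 UMI of Foxp3, the lineage factor of regulatory T cells), a Cd4/Trac class (no Foxp3 UMI, at least 1 UMI of Cd4 or of Trac, the constant part of the mature receptor α chain) and a Ptcra class (no Cd4 UMI, at least 1 UMI of Ptcra, which encodes the α chain of the pre-T cell receptor). The Ptcra class held 6644 of the knockout-labelled and 4825 of the WT CD25+ cells, or 71.9% and 63.1%, although the gate was for CD4+ cells. In it the summed level of 6 markers of double-negative thymocytes (Ptcra, Rag1, Dntt, Hes1, Dtx1 and Erg) was 2400 CPM in knockout-labelled and 2925 CPM in WT cells, and Trac was at 1.34 and 1.17 CPM. Part of the marker sum follows from the class rule, since Ptcra is 1 of the 6. All 6 were at 20 CPM or more in both labels. The Cd4/Trac class held 819 knockout-labelled and 1063 WT CD25+ cells, and 1434 knockout-labelled and 2280 WT CD25− cells. A cell with Trac and Ptcra UMIs but none of Cd4 or Foxp3 fell in both the Cd4/Trac and the Ptcra class, and 56 knockout-labelled and 36 WT CD25+ cells were of this kind. The Foxp3 class held 389 knockout-labelled and 679 WT CD25+ cells, and only 59 and 51 CD25− cells, which were not compared. The CD25− gate had no cell of the Ptcra class in the knockout-labelled library and 2 in the WT library.

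The 94 genes together took 2.55% of all UMIs in knockout-labelled CD25+ cells, 2.43% in WT CD25+ cells, 2.11% in knockout-labelled CD25− cells and 1.92% in WT CD25− cells. Levels can be set against each other between genes because a 5′ library counts each transcript once whatever its length. By summed level complex V came first in every library, with 9094, 8562, 7350 and 6645 CPM in the same order, followed by the accessory subunits of complex I with 6407, 6137, 5421 and 4869 CPM and complex IV with 5851, 5552, 4890 and 4485 CPM. The core subunits of complex I, which carry its cofactors, summed to 961, 927, 739 and 683 CPM. Complex II, which also serves the tricarboxylic acid (TCA) cycle, summed to 553, 544, 463 and 446 CPM. The composition was alike across the 4 libraries, with complex V at 34.7% to 35.7% and complex IV at 22.9% to 23.4% of the members' UMIs.

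**Figure D1:**
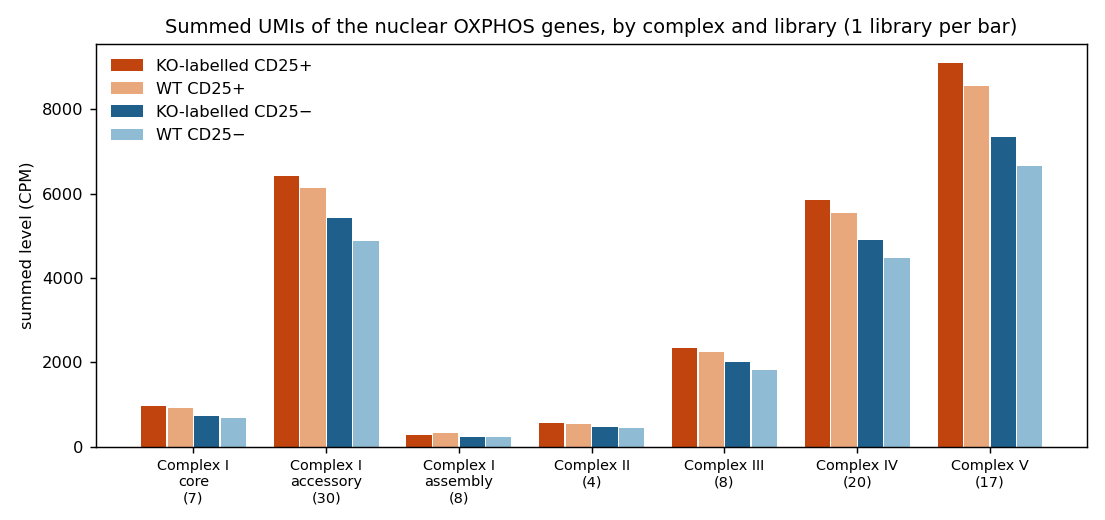
Summed level in CPM (vertical axis) of the genes of each complex, with the number of genes in brackets, in the 4 libraries (1 bar per library, no replicates). Complex V was highest in each library, and each complex was higher in the CD25+ than in the CD25− library of the same label.

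Cox4i1, the ubiquitous form of cytochrome oxidase subunit 4, was the highest member in knockout-labelled and WT CD25+ cells, at 909.5 and 892 CPM, and was at 761 and 702 CPM in knockout-labelled and WT CD25− cells. Atp5g3, 1 of 3 genes for the same c-ring subunit of ATP synthase, was at 885, 863, 763 and 715 CPM in the same order. It was thus below Cox4i1 in the CD25+ libraries and slightly above it in the CD25− libraries. Uqcrh, the hinge protein of complex III, was the highest of its complex at 545, 590, 565 and 543 CPM. Ndufa7, Ndufa13 and Ndufa6 led complex I in the CD25+ libraries, at between 296 and 342 CPM. The assembly factors, which help to build complex I without staying in it, were low, between 15.2 and 60.7 CPM in knockout-labelled and between 17.5 and 78.6 CPM in WT CD25+ cells.

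Of the 94 members, 87 reached 20 CPM in at least 1 library or class and 7 did not. The 7 were tissue-restricted paralogues. Cox4i2 had 95 UMIs over all 4 libraries, Cox7a1 and Cox6a2, the heart and muscle forms, had 390 and 339, and Cox8b and Cox8c had 2 each. Cox7b2 and Ndufa4l2 had none, which allows at most 0.0435 CPM in knockout-labelled CD25+ cells and 0.0555 CPM in WT CD25+ cells. Across the 8 combinations of class and library with at least 389 cells, the highest level of a member was a median 1.504 times its lowest. It was under 1.5 times for 41 of the 87 members, 1.5 to 2 times for 38 and over 2 times for 8. The level was highest in knockout-labelled CD25+ Cd4/Trac cells for 50 of the 87 and lowest in WT CD25− Cd4/Trac cells for 45.

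The reference annotation shows where these levels are uncertain. In 21 of the 94 members some 90-base stretches of the first 500 transcript bases also occurred in another annotated gene, most often a pseudogene. The share of such stretches was highest for Atp5g1 with 44.3%, Atp5g2 with 37.9% and Ndufb4 with 31.3%, and in no member were most of them shared. The labels do not say how the counting treated reads from such stretches.

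Knockout-labelled cells had slightly higher levels of most members than WT cells in both gates. In the CD25+ libraries the members summed to 25495 CPM in knockout-labelled and 24282 CPM in WT cells, 1.05 times as much (interval 1.05 to 1.05). In the CD25− libraries they summed to 21099 CPM and 19172 CPM, 1.10 times as much (1.09 to 1.11). A gene counts as tested in a comparison where it had 20 CPM or more on either side. No p-value was computed. Of the tested members, 67 of 86 had a positive log2 ratio in the CD25+ gate, with a median of 0.06, and 73 of 82 in the CD25− gate, with a median of 0.12. Over all genes tested the median log2 ratio was -0.05 and -0.04, and 38.4% and 41.3% of genes had a positive ratio. In 61 of the 82 members tested in both gates the ratio was positive in both, and in 6 it was negative in both. No member reached 1.5-fold in either direction in either gate, against 4.04% of all genes in the CD25+ gate and 3.01% in the CD25− gate. A higher share in knockout-labelled cells was not particular to the members. Ribosomal protein genes held 24.4% of UMIs in knockout-labelled and 22.2% in WT CD25+ cells, and 22.2% and 20.1% in CD25− cells. The 13 subunits encoded by mitochondrial DNA summed to 28837 CPM in knockout-labelled and 27122 CPM in WT CD25+ cells. In knockout-labelled and WT CD25− cells they summed to 24953 and 25440 CPM.

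Complex V carried this most evenly, with 16 of 17 members above 0 in the CD25+ and 17 of 17 in the CD25− gate, at median log2 ratios of 0.08 and 0.14. Of the 30 accessory subunits of complex I, 25 and 28 were above 0. Over whole libraries the assembly factors of complex I did not go the same way. They summed to 286 CPM in knockout-labelled and 314 CPM in WT CD25+ cells, with 4 of 7 above 0. In knockout-labelled and WT CD25− cells they summed to 228 and 231 CPM, with 2 of 4 above 0. The classes differed in this. Sums were 245 CPM in knockout-labelled and 226 CPM in WT Foxp3 cells, with 5 of 6 above 0. In Cd4/Trac cells of the CD25+ gate they were 312 and 308 CPM, with 5 of 8 above 0. Ptcra cells had 276 and 314 CPM (3 of 7 above 0), and CD25− Cd4/Trac cells 229 and 240 CPM (2 of 4 above 0).

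**Figure D2:**
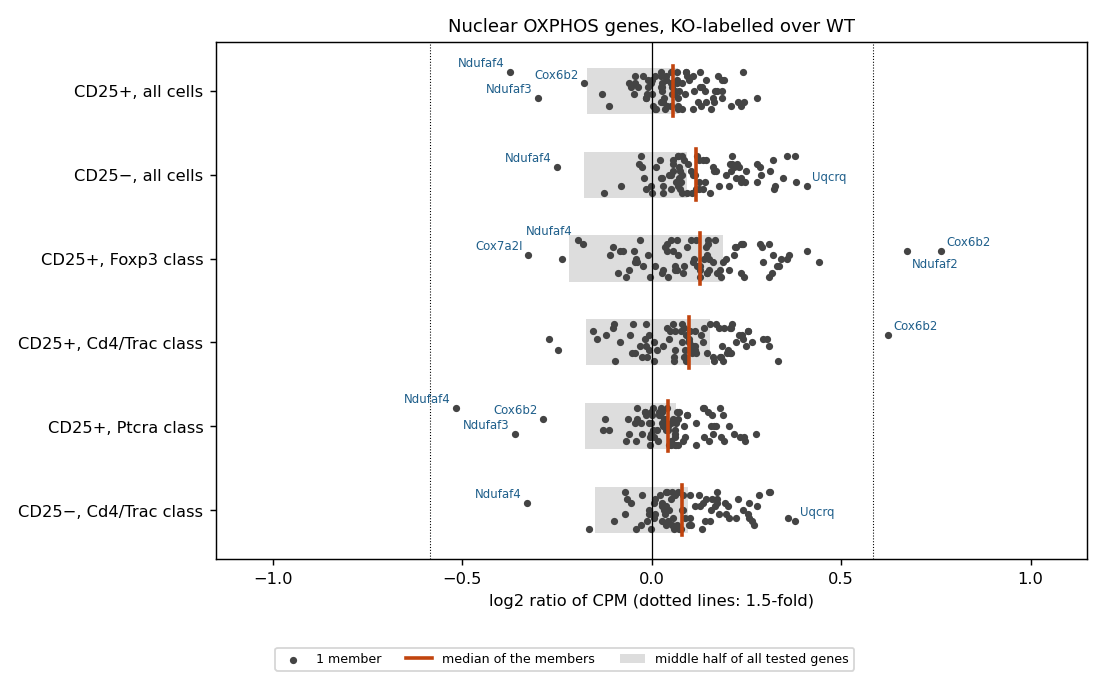
Log2 ratio of the level in knockout-labelled over WT cells (horizontal axis) for each member at 20 CPM or more on either side, in 6 comparisons (1 library each side). The orange bar is the members' median, the grey box the interquartile range of all tested genes, and the dotted lines 1.5-fold. The medians lie between 0.04 and 0.13, with Ndufaf4 left of 0 in each comparison where it is named.

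Ndufaf4, an assembly factor of complex I, was the lowest of all tested members in both gates. Its level was 60.7 CPM in knockout-labelled and 78.6 CPM in WT CD25+ cells, 0.771 times as high (0.739 to 0.805). In the CD25− gate it was 50.5 CPM in knockout-labelled and 60.2 CPM in WT cells, 0.840 times as high (0.753 to 0.936). Ndufaf3, a partner of Ndufaf4 in building complex I, was at 46.2 CPM in knockout-labelled and 56.9 CPM in WT CD25+ cells (ratio 0.812, 0.773 to 0.854), and its interval spanned 1 in the CD25− gate (0.916, 0.7995 to 1.05).

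The members with the highest ratios in the CD25+ gate were small subunits of complexes III and V. Uqcr10, a small subunit of complex III, was at 318 CPM in knockout-labelled and 263 CPM in WT cells, 1.21 times as high (1.19 to 1.24). Atp5mpl, a small membrane subunit of ATP synthase, Uqcr11 and Atp5g2 each had a ratio of 1.18, and Ndufb8 of complex I had 1.17. In the CD25− gate Uqcrq, another small subunit of complex III, led with 353 CPM in knockout-labelled and 265 CPM in WT cells, 1.33 times as high (1.27 to 1.39). It was followed by Atp5k at 1.30 (1.20 to 1.41), Ndufb1-ps at 1.30 (1.22 to 1.39), Ndufc1 at 1.28 (1.19 to 1.37) and Ndufaf2 at 1.27 (1.06 to 1.52). Ndufb1-ps is annotated as a noncoding transcript of a bidirectional promoter and not as protein-coding.

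The same direction was seen inside the classes. In the Foxp3 class of the CD25+ gate the members held 2.36% of UMIs in knockout-labelled and 2.22% in WT cells (ratio 1.06, 1.05 to 1.07), in the Cd4/Trac class 2.80% and 2.63% (1.06, 1.06 to 1.07) and in the Ptcra class 2.48% and 2.38% (1.04, 1.04 to 1.05). In the Cd4/Trac class of the CD25− gate they held 2.15% in knockout-labelled and 2.00% in WT cells (1.07, 1.07 to 1.08). Positive log2 ratios were found for 66 of 85, 66 of 87, 62 of 86 and 68 of 82 members in these 4 comparisons, with medians of 0.13, 0.10, 0.04 and 0.08, against all-gene medians of -0.03, -0.01, -0.06 and -0.03.

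At 1.5-fold, 2 members were higher in knockout-labelled Foxp3 cells, Cox6b2 and Ndufaf2, where 6.03% of all genes were higher and 3.58% lower. Ndufaf2, another assembly factor of complex I, was at 28.7 CPM in knockout-labelled and 18.0 CPM in WT Foxp3 cells (1.59, 1.10 to 2.31). Without cells that had cycling UMIs its ratio was 1.10. In the Cd4/Trac class of the CD25+ gate Cox6b2 alone was higher (all genes 2.68% higher, 2.41% lower). None was called in either direction in the Ptcra class (all genes 4.04%) or in the Cd4/Trac class of the CD25− gate (all genes 2.64%). Ndufaf4 was again the lowest member in the Ptcra class, with 52.6 CPM in knockout-labelled and 75.2 CPM in WT cells (0.699, 0.662 to 0.738), and in the Cd4/Trac class of the CD25− gate, with 50.2 and 63.1 CPM (0.796, 0.709 to 0.892). In the Foxp3 and Cd4/Trac classes of the CD25+ gate it was at 37.5 against 42.9 CPM and 80.1 against 85.9 CPM, with intervals spanning 1 in both (0.657 to 1.16 and 0.827 to 1.05). Cox7a2l had the lowest ratio in the Foxp3 class, as described below with its paralogues.

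Markers of cell division moved with the label. All 6 cycling genes (Mki67, Top2a, Birc5, Cdk1, Ccnb1 and Ccnb2) were higher in knockout-labelled CD25+ cells, with 3 of them at 1.5-fold or more, and 22.8% of cells had at least 2 UMIs of them in the knockout-labelled, against 13.5% in the WT CD25+ library. In the CD25− gate the share was 7.52% in the knockout-labelled and 4.12% in the WT library. Among Ptcra cells with at least 2 such UMIs the members' share was 2.75% in knockout-labelled and 2.79% in WT cells, a ratio of 0.987 (0.982 to 0.991). Among Ptcra cells with none it was 2.30% and 2.22%, a ratio of 1.04 (1.03 to 1.04). In the Cd4/Trac class of the CD25+ gate the ratio was 1.06 both with and without such UMIs, and in the CD25− gate 1.07 with and 1.06 without.

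The CD25− libraries also differed in shallow cells. Cells with fewer than 1000 detected genes were 6.59% of the knockout-labelled and 20.1% of the WT CD25− library. Their members' share was 0.717% in knockout-labelled and 0.491% in WT cells, and Gm42418, a gene model that overlaps ribosomal RNA, stood at 72973 and 112623 CPM in them. In CD25− cells with at least 1000 genes the share was 2.13% in knockout-labelled and 2.00% in WT cells.

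**Figure D3:**
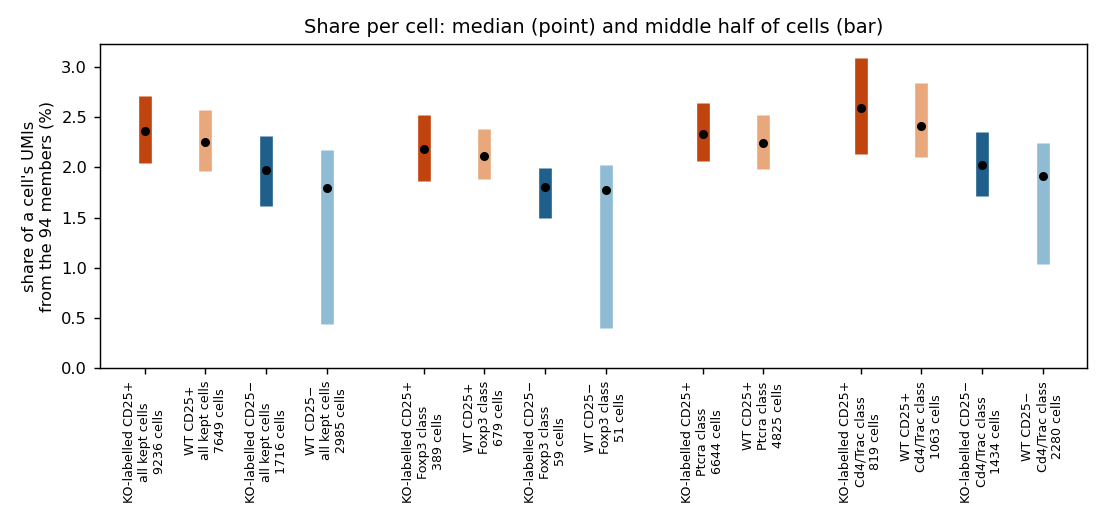
Share of each cell's UMIs from the 94 members, in percent (vertical axis), as the median (point) and the interquartile range over cells (bar) for each library and class. Over all kept cells, WT CD25− cells had a lower quartile of 0.438% and a median of 1.79%, against 1.62% and 1.97% in knockout-labelled CD25− cells.

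CD25+ cells had higher levels of most members than CD25− cells. The members' summed level was 1.21 times as high in the CD25+ gate in knockout-labelled libraries (1.20 to 1.21) and 1.27 times in WT libraries (1.26 to 1.27). Log2 ratios were positive for 73 of 86 members in knockout-labelled and 78 of 86 in WT libraries, with medians of 0.28 and 0.34 against 0.05 and 0.05 over all genes. At 1.5-fold, 12 members were higher in knockout-labelled libraries and 19 in WT libraries, and none was lower. Over all genes 21.1% were higher and 18.4% lower in knockout-labelled libraries, and 20% and 17.9% in WT libraries, so that the share of members called higher was below or near the background, while no member was among the many genes called lower. The calls shared by both labels numbered 11, which is 91.7% of the knockout-labelled and 57.9% of the WT calls.

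Those 11 were Ndufa12, Ndufab1, Ndufb9, Ndufc2, Ndufs7 and Ndufaf1 of complex I, Sdhd of complex II, Uqcr11 of complex III, Cox5b and Cox6b2 of complex IV, and Atp5g1 of complex V. Sdhc was called in knockout-labelled libraries alone, and Ndufaf2, Ndufaf3, Ndufaf6, Ndufb6, Ndufb10, Ndufs8, Atp5g2 and Atp5l in WT libraries alone. Ndufa12, an accessory subunit of the peripheral arm of complex I, was at 233 CPM in knockout-labelled CD25+ and 117 CPM in knockout-labelled CD25− cells, 2.00 times as high (1.89 to 2.11), and at 216 and 115 CPM in WT CD25+ and CD25− cells (1.89, 1.79 to 1.99). Ndufab1, the acyl carrier protein of mitochondrial fatty acid synthesis that is also a subunit of complex I, was at 263 and 140 CPM in knockout-labelled CD25+ and CD25− cells (1.88, 1.79 to 1.98) and at 271 and 143 CPM in WT CD25+ and CD25− cells (1.90, 1.81 to 1.99). Uqcr11 had ratios of 1.87 in knockout-labelled and 1.86 in WT libraries.

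Log2 ratios were negative in both labels for 8 members. They were Atp5k, Cox7a2l, the core subunit Ndufs1 of complex I and its accessory subunits Ndufa1, Ndufa3, Ndufa13, Ndufs4 and Ndufv3. Ndufv3, an accessory part of the NADH-oxidising module, was at 178 CPM in knockout-labelled CD25+ and 237 CPM in knockout-labelled CD25− cells (0.753, 0.722 to 0.785), and at 170 and 199 CPM in WT CD25+ and CD25− cells (0.853, 0.817 to 0.891). Ndufa3 had ratios of 0.776 in knockout-labelled and 0.864 in WT libraries, and Ndufa1 0.823 and 0.920. With cells weighted equally the WT ratios of these 3 turned above 1, to 1.10 for Ndufv3, 1.17 for Ndufa3 and 1.20 for Ndufa1.

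These gates differ in shallow cells. Cells with fewer than 1000 detected genes were 2.49% of the knockout-labelled and 2.67% of the WT CD25+ library, against 6.59% and 20.1% of the CD25− libraries. Over all kept cells Gm42418 was at 7323 and 7268 CPM, against 17878 and 33269 CPM. In cells with at least 1000 genes the members' share was 2.55% and 2.43%, against 2.13% and 2.00%. The part of these cells in the ratios between gates was not tested. The gates also differ in their make-up, since most CD25+ cells were of the Ptcra class. Within the Cd4/Trac class the ratio of the summed levels between gates was 1.31 in knockout-labelled (1.30 to 1.31) and 1.32 in WT libraries (1.31 to 1.32), above the whole-library values. Log2 ratios were positive for 80 of 86 members in knockout-labelled libraries (median 0.37, all genes 0.03) and for 81 of 86 in WT libraries (median 0.39, all genes 0.01). At 1.5-fold, 20 members were higher in knockout-labelled libraries, where 15.1% of all genes were higher and 12.3% lower, and 13 in WT libraries, where 10.9% were higher and 9% lower. None was lower, and 10 calls were shared, 10 of the 20 knockout-labelled (50%) and 76.9% of the WT calls. They included Atp5g1, at 554 and 316 CPM in knockout-labelled CD25+ and CD25− cells (1.75, 1.67 to 1.84) and 475 and 283 CPM in WT CD25+ and CD25− cells (1.68, 1.598 to 1.76), and also Cox5a, Ndufa11, Ndufa12, Ndufab1, Ndufb6, Ndufc2, Ndufv2, Uqcr11 and Atp5g3. Called in knockout-labelled libraries alone were Cox6b2, Ndufaf4, Ndufaf1, Ndufa5, Ndufb2, Ndufb7, Ndufs7, Sdhc, Cox5b and Atp5b, and in WT libraries alone Ndufb9, Ndufs8 and Atp5d. Cox6b2 was below 20 CPM on both sides in WT libraries and so was not tested there, at 17.5 CPM in CD25+ and 4.57 CPM in CD25− cells (ratio 3.83, 2.76 to 5.37). The ratio of Cox6b2 depended on the class rule. With class genes at 2 UMIs or more it was 1.59 in WT libraries, and 3.52 in knockout-labelled libraries, where it was otherwise 7.95. Log2 ratios were negative in both labels for 4 members, Cox7a2l, Ndufa3, Ndufs1 and Ndufv3. Ndufv3 had ratios of 0.877 (0.819 to 0.938) in knockout-labelled and 0.965 (0.904 to 1.03) in WT libraries.

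The Cd4/Trac cells of the CD25+ gate carried double-negative markers at a summed 651 CPM in knockout-labelled and 522 CPM in WT cells, against 59.0 and 73.5 CPM in knockout-labelled and WT Cd4/Trac cells of the CD25− gate, and 5 and 4 of the 6 markers were at 20 CPM or more, against 1 and 1, with 1 and 1 at 0. They also held more cells with at least 2 cycling UMIs (17.2% and 12.04%, against 8.44% and 4.96%). Ptcra itself was at 168 and 113 CPM in them. The part of these markers in the difference between gates was not tested. Without cells that had cycling UMIs, the median log2 ratio between gates within the Cd4/Trac class was 0.42 in knockout-labelled and 0.40 in WT libraries, and over whole libraries 0.24 and 0.26.

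Among CD25+ cells, the Foxp3 class had lower levels of most members than the Cd4/Trac class. The summed level was 0.844 times as high in knockout-labelled (0.836 to 0.852) and 0.845 times in WT cells (0.838 to 0.852). Log2 ratios were negative for 72 of 86 members in knockout-labelled and 77 of 87 in WT cells, with medians of -0.23 and -0.28 against -0.09 and -0.08 over all genes. At 1.5-fold, 6 members were lower and none higher in knockout-labelled cells, and 6 were lower and 1, Cox7a2l, higher in WT cells. Over all genes 7.9% were higher and 10.5% lower in knockout-labelled cells, and 7.18% and 10.7% in WT cells, so the members' share called lower was below the background, while their median was further from 0.

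Shared between both labels were 4 of the 6 lower calls, Ndufaf4, Ndufa12, Uqcrq and Atp5g1. Ndufa5 and Ndufab1 were called in knockout-labelled cells alone, and Ndufaf2 and Ndufaf6 in WT cells alone. Ndufaf4 was at 37.5 CPM in Foxp3 and 80.1 CPM in Cd4/Trac cells of the knockout-labelled library, 0.468 times as high (0.365 to 0.593), and at 42.9 and 85.9 CPM in those of the WT library (0.500, 0.414 to 0.600). Uqcrq was at 292 CPM in Foxp3 and 500 CPM in Cd4/Trac cells of the knockout-labelled library (0.584, 0.535 to 0.636), and at 248 and 404 CPM in those of the WT library (0.613, 0.567 to 0.663). Of the 17 genes of complex V, 16 were below 0 in knockout-labelled and 17 in WT cells. Foxp3 cells had fewer cycling cells (10.0% in knockout-labelled and 2.95% in WT cells) and fewer UMIs per cell, with medians of 4288 and 4146 against 6072 and 5725 in Cd4/Trac cells. The part of either in the difference was not tested.

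Uqcrh and Ndufa6 were higher in the Foxp3 class. Uqcrh was at 683 CPM in Foxp3 and 559 CPM in Cd4/Trac cells of the knockout-labelled library (1.22, 1.15 to 1.30), and at 806 and 623 CPM in those of the WT library (1.29, 1.23 to 1.36). Ndufa6, an accessory subunit of complex I, had ratios of 1.24 (1.13 to 1.35) in knockout-labelled and 1.31 (1.22 to 1.40) in WT cells.

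The Ptcra class had slightly lower levels than the Cd4/Trac class, with a summed ratio of 0.887 in knockout-labelled (0.882 to 0.891) and 0.905 in WT cells (0.901 to 0.910). Log2 ratios were negative for 66 of 86 and 60 of 87 members, with medians of -0.15 and -0.11 against 0.00 and 0.05 over all genes. Cox6b2 was the only member called higher in both labels. In knockout-labelled cells 4 members were lower (Uqcrq, Ndufa4, Ndufa5 and Ndufaf4), and in WT cells none. Of all genes 12.7% were higher and 10.9% lower in knockout-labelled cells, and 16.1% and 12.5% in WT cells. Uqcrq was at 293 CPM in Ptcra and 500 CPM in Cd4/Trac cells of the knockout-labelled library (0.587, 0.565 to 0.611), and at 275 and 404 CPM in those of the WT library (0.681, 0.653 to 0.710). Ndufa4, a subunit of complex IV despite its name, had ratios of 0.645 in knockout-labelled and 0.670 in WT cells.

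**Figure D4:**
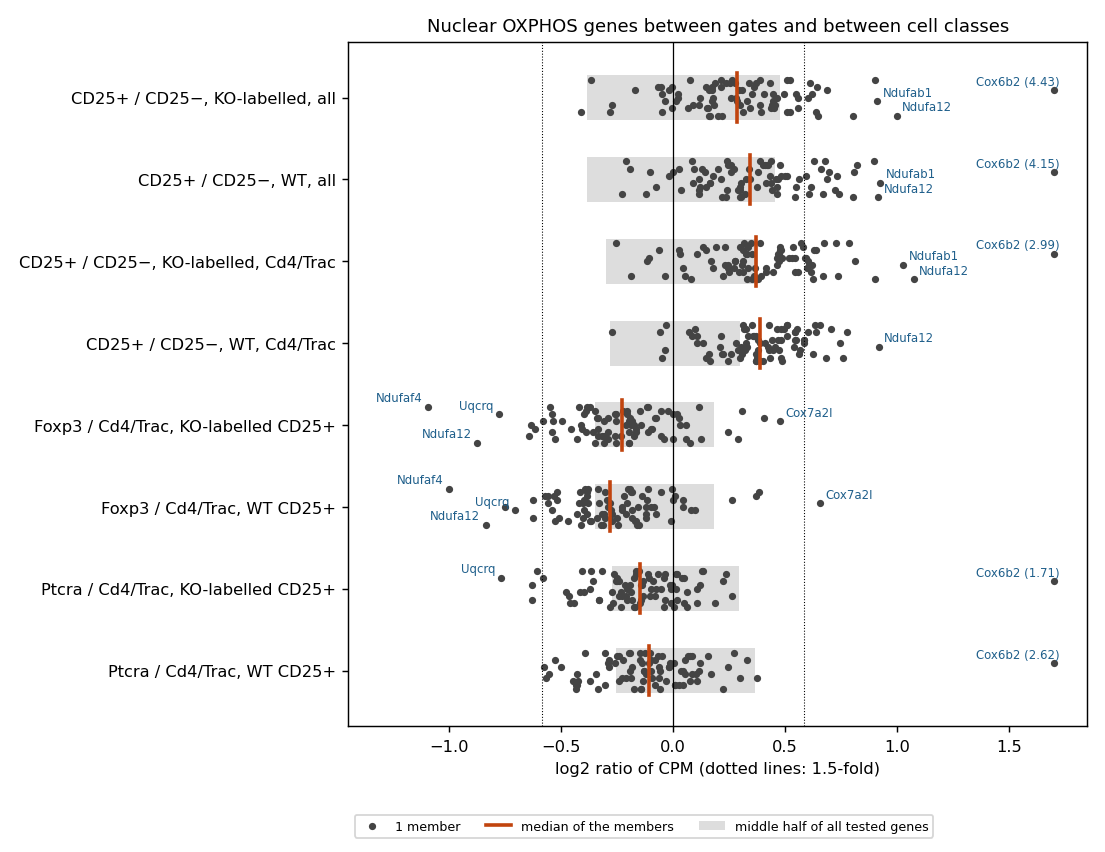
Log2 ratio of the level (horizontal axis) of each tested member between gates and between cell classes, drawn as in the plot of ratios between labels. Cox6b2 lies beyond the axis in 5 comparisons and is drawn at its right edge with its value, and the medians are above 0 between gates and below 0 for the Foxp3 and Ptcra classes against the Cd4/Trac class.

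Cox6b2 had the widest range of the 87 members, with a highest level 31.7 times its lowest over the combinations of class and library. It encodes a form of cytochrome oxidase subunit 6B known from testis and sperm, whereas Cox6b1 encodes the ubiquitous form. The gene lies on the minus strand of chromosome 7 (GRCm38, 4751792 to 4753094), the same chromosome as Cox6b1 (30616861 to 30626151, minus strand). Their promoters, from 250 bases before to 50 bases after the RefSeq start on GRCm38.p6 and read on the genes' own strand, are shown because the levels of the paralogues differ between classes. Capitals mark CCAAT, or ATTGG where it lies on the other strand, a box known to bind NF-Y, and each promoter has 3.
Cox6b2, chr7:4753045-4753344, minus strand: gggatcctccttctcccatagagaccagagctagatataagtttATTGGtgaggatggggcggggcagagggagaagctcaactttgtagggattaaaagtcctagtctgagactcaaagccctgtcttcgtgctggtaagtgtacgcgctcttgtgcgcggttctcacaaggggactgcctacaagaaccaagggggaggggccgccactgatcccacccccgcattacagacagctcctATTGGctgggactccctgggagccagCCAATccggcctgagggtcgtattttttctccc
Cox6b1, chr7:30626065-30626364, minus strand: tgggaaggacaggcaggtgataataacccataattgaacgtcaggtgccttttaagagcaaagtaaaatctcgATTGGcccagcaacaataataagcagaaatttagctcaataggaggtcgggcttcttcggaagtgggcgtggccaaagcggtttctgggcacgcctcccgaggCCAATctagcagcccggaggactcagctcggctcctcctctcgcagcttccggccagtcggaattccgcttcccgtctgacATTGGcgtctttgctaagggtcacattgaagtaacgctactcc

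By library, Cox6b2 was at 75.3 CPM in knockout-labelled CD25+, 85.2 CPM in WT CD25+, 3.49 CPM in knockout-labelled CD25− and 4.79 CPM in WT CD25− cells, a ratio between gates of 21.5 (15.7 to 30.3) in knockout-labelled and 17.8 (13.9 to 23.1) in WT libraries. Both CD25+ libraries were far above both CD25− libraries. By class the level was 88.1 CPM in knockout-labelled and 107 CPM in WT Ptcra cells, 35.6 and 21.0 CPM in Foxp3 cells, 26.9 and 17.5 CPM in Cd4/Trac cells of the CD25+ gate, and 3.39 and 4.57 CPM in Cd4/Trac cells of the CD25− gate. In cells thinned to 1500 UMIs a Cox6b2 UMI was seen in 12.4% of knockout-labelled and 15.8% of WT Ptcra cells (40.1% and 47.0% before thinning), against 0.430% and 0.588% of knockout-labelled and WT CD25− Cd4/Trac cells (2.16% and 2.06% before). Median depths were 6005.5 and 6078 UMIs in the Ptcra and 6711.5 and 5196.5 in the CD25− Cd4/Trac cells, and thinning left out 72 and 41 shallower Ptcra cells and 40 and 239 shallower CD25− Cd4/Trac cells.

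Cox6b1 varied far less, between 398 and 471 CPM over the 3 classes of both CD25+ libraries. Cox6b2 therefore made up 17.4% (16.9 to 17.9) of the UMIs of both paralogues in knockout-labelled and 21.2% (20.6 to 21.8) in WT Ptcra cells, and 0.895% and 1.32% in knockout-labelled and WT CD25− Cd4/Trac cells.

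Between labels Cox6b2 had a ratio of 0.819 (0.784 to 0.856) in the Ptcra class, 1.54 (1.21 to 1.96) in the Cd4/Trac class and 1.697 (1.21 to 2.38) in the Foxp3 class of the CD25+ gate. Double-negative markers, Ptcra among them, were at a summed 663 CPM in knockout-labelled and 366 CPM in WT Foxp3 cells. Of the Foxp3 cells, 58 knockout-labelled and 34 WT cells also fell in the Ptcra class. The part of these cells in the difference between labels was not tested. In cells that fell in exactly 1 class the ratio in the Foxp3 class was 0.584, the opposite direction, and it was 1.51 in the Cd4/Trac class. With doublets kept the ratios were 1.33 and 1.34. The Foxp3 class had 1.32 times the Cox6b2 level of the Cd4/Trac class in knockout-labelled and 1.20 times in WT cells, but 0.301 and 0.780 times in cells of exactly 1 class. Within Cd4/Trac cells of the CD25+ gate, those with an Nr4a1 UMI had Cox6b2 at 11.3 CPM in knockout-labelled and 11.7 CPM in WT cells, against 36.3 and 20.2 CPM in those without.

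Cox7a2l had the highest ratio of the Foxp3 to the Cd4/Trac class among the tested members in both CD25+ libraries. It encodes a protein of the subunit 7A family that tethers complex III to complex IV in supercomplexes, and C57BL/6 mice are known to carry a shortened form. It was at 388 CPM in knockout-labelled and 487 CPM in WT Foxp3 cells, at 304 and 304 CPM in Ptcra cells, at 279 and 309 CPM in Cd4/Trac cells of the CD25+ gate, and at 301 and 315 CPM in Cd4/Trac cells of the CD25− gate. The Foxp3 level was 1.39 times the Cd4/Trac level in knockout-labelled (1.28 to 1.51) and 1.58 times in WT cells (1.48 to 1.68). In thinned Foxp3 cells the share with a Cox7a2l UMI was 44.5% (39.4 to 49.7) for the knockout-labelled and 49.2% (45.4 to 53.1) for the WT library, and in thinned Cd4/Trac cells 33.7% (30.4 to 37.1) and 38.1% (35.2 to 41.1). Before thinning these shares were 77.1% and 83.7%, and 74.4% and 76.5%. Between labels its level in the Foxp3 class had a ratio of 0.798 (0.733 to 0.868). These Foxp3 cells differed in make-up, with 58 of 389 knockout-labelled and 34 of 679 WT cells also in the Ptcra class. At least 2 cycling UMIs were found in 10.0% of the knockout-labelled and 2.95% of the WT Foxp3 cells. The part of either in this ratio was not tested.

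Its paralogue Cox7a2, the common form of the subunit, did not share this pattern, at 309 and 295 CPM in knockout-labelled and WT Foxp3 cells against 414 and 372 CPM in Cd4/Trac cells. Of the UMIs of Cox7a1, Cox7a2 and Cox7a2l together, Cox7a2l held 55.5% in knockout-labelled and 62.2% in WT Foxp3 cells, and 40.1% and 45.2% in Cd4/Trac cells.

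**Figure D5:**
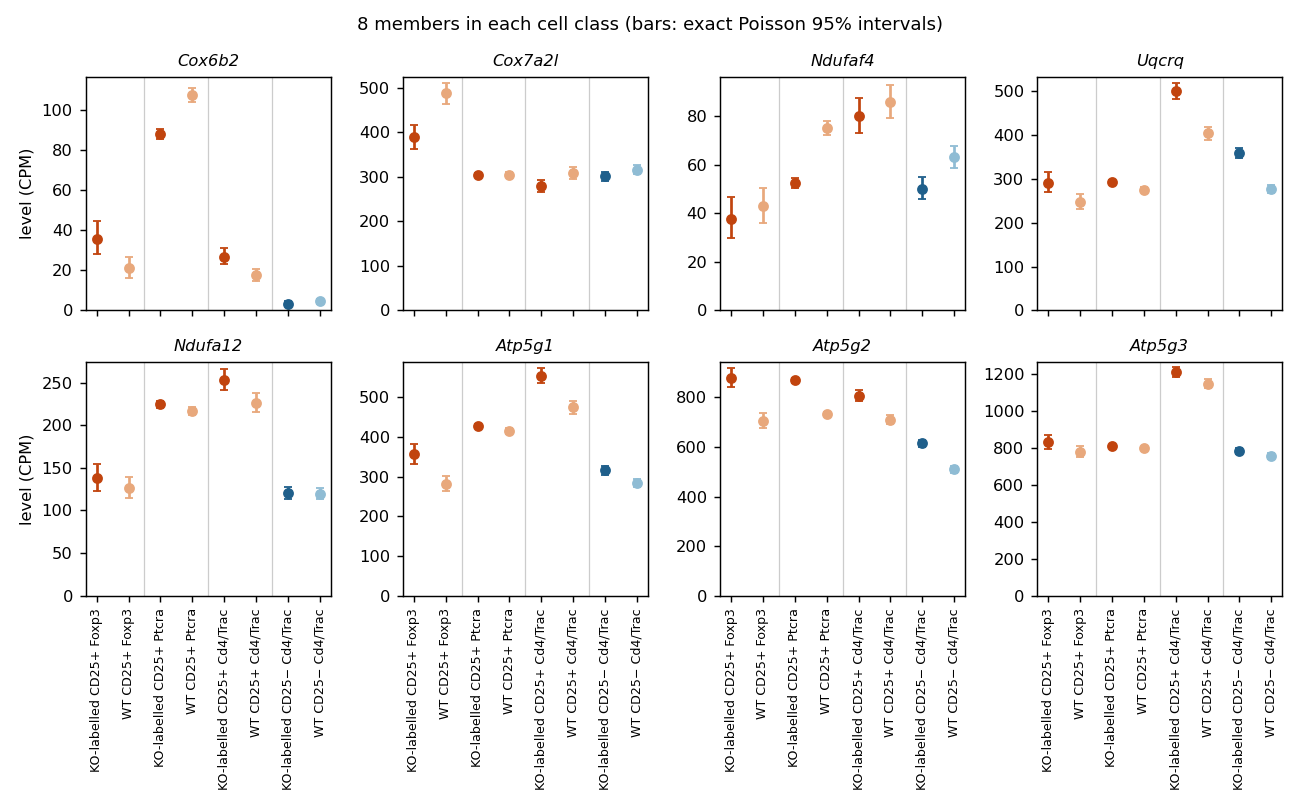
Level in CPM (vertical axis of each panel) of chosen members in each library and class, with exact 95% Poisson intervals that cover counting error only. Cox6b2 is highest in the Ptcra class, at 88.1 and 107 CPM, Cox7a2l is highest in the Foxp3 class, at 388 and 487 CPM, and Ndufaf4 is lower there, at 37.5 and 42.9 CPM, than in Cd4/Trac cells of the same gate.

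The 3 genes Atp5g1, Atp5g2 and Atp5g3 encode the same mature c-ring subunit behind different import signals, and each gene's share of their summed UMIs differed between classes. Atp5g3 held 38.4% (38.1 to 38.7) of their UMIs in knockout-labelled and 41.0% (40.6 to 41.3) in WT Ptcra cells, and 47.1% (46.3 to 47.8) and 49.2% (48.4 to 49.9) in Cd4/Trac cells of the CD25+ gate. Atp5g2 went the other way, at 41.3% and 37.7% in Ptcra cells and 31.4% and 30.5% in Cd4/Trac cells. In Foxp3 cells Atp5g1 held 17.3% (16.2 to 18.4) in knockout-labelled and 15.96% (15.04 to 16.9) in WT cells, against 21.6% and 20.4% in Cd4/Trac cells. The shared stretches noted above for Atp5g1 and Atp5g2 apply to these shares.

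Ndufaf4 lies on the plus strand of chromosome 4 (GRCm38, 24898083 to 24905001). In cells thinned to 1500 UMIs it was seen in 5.09% of knockout-labelled and 5.02% of WT Foxp3 cells and in 9.24% and 9.34% of Cd4/Trac cells of the CD25+ gate (before thinning 15.4% and 14.7%, and 34.1% and 33.3%). Its promoter is shown because the gene was the lowest member in several comparisons and because it holds the full palindromic motif of NRF1, a transcription factor known for its targets among respiratory chain genes. Whether the motif has any part in the level of Ndufaf4 was not tested. Capitals mark that motif, GCGCATGCGC, which is GCGCA followed by its reverse complement.
Ndufaf4, chr4:24897833-24898132, plus strand: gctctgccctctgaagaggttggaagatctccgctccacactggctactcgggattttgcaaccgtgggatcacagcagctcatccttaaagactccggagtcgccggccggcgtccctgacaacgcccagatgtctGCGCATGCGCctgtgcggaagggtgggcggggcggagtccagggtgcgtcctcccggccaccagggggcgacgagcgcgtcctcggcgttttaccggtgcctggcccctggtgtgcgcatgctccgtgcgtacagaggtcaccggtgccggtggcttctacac

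Promoters of 75 of the 94 members could be matched in RefSeq on GRCm38.p6. On either strand of these 300 bases the letters GCGCATGCGC occurred for 7 members (9.33%), against 1.07% of all 27025 genes with a promoter. The 7 were Ndufaf4, Ndufaf5, Atp5k, Atp5g2, Cox6a1, Uqcrc1 and Ndufa11. A gene with several promoters counted if any of them held the letters. The YY1 letters AAGATGGC occurred in 13.3% of members and 3.19% of all, the ETS letters CCGGAAGT in 6.67% and 4.31%, CCAAT in 45.3% and 41.1%, and the TATA box TATAAA in 10.7% and 15.7%. Each motif was searched on its own, whether or not it overlapped another, and a match describes letters and no more.

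Cells that carried cycling UMIs had higher levels of most members. Between Ptcra cells with at least 2 UMIs of the 6 cycling genes and Ptcra cells with none, the summed ratio was 1.20 in knockout-labelled (1.19 to 1.20) and 1.26 in WT cells (1.253 to 1.27). At 1.5-fold, 9 members were higher and 1 lower in knockout-labelled cells, where 12.3% of all genes were higher and 20.3% lower, and 13 were higher and 0 lower in WT cells, where 15% and 25.3% of all genes were. In the Cd4/Trac class the summed ratio was 1.06 in knockout-labelled and 1.06 in WT CD25+ cells, and 1.22 and 1.20 in knockout-labelled and WT CD25− cells. Such a split also sorts cells by depth, with a median of 12821.5 against 5282 UMIs in knockout-labelled Ptcra cells. The members differed in it. Cox5a, a subunit on the matrix side of complex IV, was at 538 CPM with and 295 CPM without such UMIs in knockout-labelled Ptcra cells (1.82, 1.77 to 1.88), and at 609 and 286 CPM in WT Ptcra cells (2.13, 2.05 to 2.21). Cox7a2l had the opposite sign, at 252 and 338 CPM with and without in knockout-labelled Ptcra cells (0.746, 0.719 to 0.773) and at 227 and 333 CPM in WT Ptcra cells (0.680, 0.648 to 0.714). It was also the lowest tested member of this split in the Cd4/Trac class of all 4 libraries, with ratios between 0.593 and 0.675.

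Cd4/Trac cells with a UMI of Nr4a1, an early target of receptor signalling, had a summed level 1.14 times that of cells without in knockout-labelled (1.13 to 1.15) and 1.11 times in WT CD25+ cells (1.09 to 1.12), and 1.05 times in both CD25− libraries. Ndufaf4 was at 102 CPM in CD25+ cells with and 66.8 CPM in those without in the knockout-labelled library (1.53, 1.28 to 1.83), and at 112 and 73.6 CPM in those of the WT library (1.52, 1.29 to 1.79). Ndufa5, an accessory subunit of complex I, had ratios of 1.45 and 1.58.

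The 13 subunits encoded by mitochondrial DNA followed the direction of the nuclear members in the Foxp3 class but not in the Ptcra class. Against Cd4/Trac cells, 12 of 13 had a log2 ratio below 0 in knockout-labelled and 11 of 13 in WT Foxp3 cells, with medians of -0.11 and -0.10. These medians were near those of all genes, -0.09 and -0.08, whereas the nuclear members had -0.23 and -0.28. In Ptcra cells 10 of 13 in knockout-labelled and 12 of 13 in WT cells were above 0, with medians of 0.21 and 0.29, against 0.00 and 0.05 over all genes. Their summed level was 23235 CPM in knockout-labelled and 21672 CPM in WT Foxp3 cells, 29888 and 28670 CPM in Ptcra cells, and 24860 and 22423 CPM in Cd4/Trac cells of the CD25+ gate. The nuclear members thus had 1.02 UMIs per mitochondrially encoded UMI in knockout-labelled and 1.03 in WT Foxp3 cells, 0.831 in Ptcra cells of both labels, and 1.13 in knockout-labelled and 1.17 in WT Cd4/Trac cells. Between gates in the Cd4/Trac class the mitochondrially encoded median log2 ratio was 0.05 in knockout-labelled and -0.06 in WT libraries, beside 0.37 and 0.39 for the nuclear members. Mitochondrially encoded transcripts also enter the filter on cells, through the limit on their share.

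Other genes of energy metabolism differed in their own ways. Of 17 TCA cycle genes, 4 were higher by 1.5-fold between gates in the Cd4/Trac class in knockout-labelled and 2 in WT libraries, with medians of 0.25 and 0.16, and none was lower. Of all genes 15.1% and 10.9% were higher there, so that the WT count was near the background. Of the glycolysis genes tested, 7 of 13 were lower by 1.5-fold in knockout-labelled Ptcra than Cd4/Trac cells and 5 of 13 in WT cells, where 10.9% and 12.5% of all genes were lower. Their medians were -0.65 and -0.53, further below 0 than those of the nuclear members. All 6 genes for carriers and channels of nucleotides and phosphate were lower in Foxp3 than in Cd4/Trac cells in both labels, with medians of -0.51 in knockout-labelled and -0.49 in WT cells. Between labels the median of the TCA cycle genes was -0.04 in the Ptcra class and 0.04 in the Cd4/Trac class of the CD25+ gate, and that of the glycolysis genes was -0.09 and -0.07.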

How the data were processed

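Thymocytes of the 4 groups were measured by 10x Genomics 5′ single-cell RNA sequencing. The authors deposited a filtered matrix of raw UMI counts per gene and cell for each library, with no normalization of the values. Reads were aligned to mm10, per the submitters' processing notes, which name Cell Ranger 6.2.1, whereas the version is 6.1.2 per the file headers. Barcodes with at least 500 genes and under 10% mitochondrial UMIs were kept. In the order knockout-labelled CD25+, WT CD25+, knockout-labelled CD25− and WT CD25−, 1.38%, 1.59%, 42.9% and 34.3% of deposited barcodes had fewer genes. Doublets were removed by Scrublet score (scanpy 1.11.5) at 0.8% per 1000 barcodes, 8.64%, 6.89%, 2.89% and 4.27% of the cells that passed. Counts were summed per library or class and scaled to CPM. Ratios carry exact conditional binomial, levels exact Poisson and shares exact Clopper-Pearson intervals at 95% (scipy 1.17.1). They cover counting error only and not the spread between mice. Genes at 20 CPM or more on either side were compared and called at 1.5-fold. The ratio step was checked on simulated counts.

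Named members were drawn from the 5 highest and 5 lowest ratios of each comparison over at least 100 UMIs, all called members, the highest of each complex and the paralogue families. Ndufb4 and the members given for the splits by cycling and Nr4a1 UMIs were chosen after their values were seen. The members, lists and comparisons were chosen with earlier results of these data known. Alternatives changed the cell filter, doublets, total, centring, floor, fold, cell weights, class rule and cycling cells.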

Additional observations from a re-analysis of the deposited data

Results flagged for a closer look

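For 9 pairs of groups, the ratio of a member between knockout-labelled and WT cells had counting intervals on opposite sides of 1. Whether the groups differed was not tested, since each side of each ratio was 1 library.

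Between gates, the log2 ratio of Uqcrh was -0.11 in the CD25+ and 0.06 in the CD25− gate, that of Ndufa4 was -0.035 and 0.12, and that of Ndufa13 was -0.059 and 0.11.

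Within the CD25+ gate, the log2 ratio of Cox6b2 was 0.76 in the Foxp3 class and 0.62 in the Cd4/Trac class, and -0.29 in the Ptcra class. Ndufaf2 had 0.67 in the Foxp3 and -0.12 in the Ptcra class, and Ndufb10 had 0.20 and -0.04. Ndufab1 had 0.18 in the Cd4/Trac and -0.13 in the Ptcra class, and Atp5b had 0.088 and -0.06. The 58 knockout-labelled and 34 WT cells in both the Foxp3 and the Ptcra class, and the 56 knockout-labelled and 36 WT cells in both the Cd4/Trac and the Ptcra class, enter both sides of these pairs.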

How the results depend on the processing

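The members' median log2 ratio kept its direction in all 14 comparisons under every alternative run. In 103 cases it stayed within the 95% order-statistic interval of the median over the members, which are not replicates, and in 29 it moved out. The cause was not tested. With all deposited barcodes the median between gates was 0.41 in knockout-labelled and 0.45 in WT libraries. With at least 1000 genes and under 5% mitochondrial UMIs it was 0.25 between WT gates and 0.32 within their Cd4/Trac class, and between labels 0.048 in the CD25− library and 0.036 in its Cd4/Trac class. With cells weighted equally the medians between labels were 0.29 (CD25−), 0.066 (Foxp3), 0.059 (CD25+ Cd4/Trac) and 0.20 (CD25− Cd4/Trac), and between WT gates 0.60, and 0.57 in the Cd4/Trac class. With class genes at 2 UMIs or more they were 0.028 (Foxp3) and 0.046 (CD25− Cd4/Trac) between labels, and -0.38 for Foxp3 against Cd4/Trac in knockout-labelled cells. Centred on the median gene they were 0.11 (CD25+), 0.16 (CD25−), 0.15 (Foxp3) and 0.10 (Ptcra) between labels, -0.14 in knockout-labelled and -0.20 in WT cells for Foxp3 against Cd4/Trac, and -0.16 in WT cells for Ptcra against Cd4/Trac. With the total taken without mitochondrial, ribosomal protein and receptor segment genes they were 0.10 (CD25+) and 0.092 (Ptcra) between labels and -0.19 for Foxp3 against Cd4/Trac in knockout-labelled cells. Without cells that had cycling UMIs, an alternative chosen after seeing the data, they were 0.045 between labels in Foxp3 cells, 0.26 between WT gates, and -0.23 in knockout-labelled and -0.21 in WT cells for Ptcra against Cd4/Trac.

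Counts of calls moved more. The share of all genes called under each alternative is not given beside these counts. They therefore describe how the calls depend on the settings and not how the members compare with other genes. Of 86 calls over the 14 comparisons, 45 were made again in every alternative other than the lower fold. Between gates, the 12 knockout-labelled and 19 WT members called higher became 22 and 29 with all barcodes, 20 and 46 with equal weights and 38 and 45 at a fold of 5 to 4, and in WT libraries 11 with the stricter filter and 12 without cycling cells. Within the Cd4/Trac class the 20 and 13 became 53 and 58 at a fold of 5 to 4, and in WT libraries 7 with the stricter filter and 40 with equal weights. The 6 and 6 lower in Foxp3 than Cd4/Trac cells became 26 and 16 with 2 UMIs and 30 and 36 at a fold of 5 to 4, and in knockout-labelled cells 17 without cycling cells, 14 in exactly 1 class, 10 with equal weights and 3 when centred. The 4 and 0 lower in Ptcra than Cd4/Trac cells became 12 and 10 without cycling cells and 17 and 15 at a fold of 5 to 4. They were also 2 in knockout-labelled cells with all barcodes or doublets kept, and 2 to 5 in WT cells when centred, with equal weights, no floor, 2 UMIs or exactly 1 class. The 2 higher in knockout-labelled than WT Foxp3 cells ranged from 0 without cycling cells to 9 at a fold of 5 to 4, and the 1 in Cd4/Trac cells from 0 to 2. In the 4 comparisons between labels with no call, 1 to 3 members were higher or lower without a floor and 1 to 7 at a fold of 5 to 4. No paired analysis was possible because each group had 1 library.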
